A study of Rattus norvegicus with 4 samples.

Results

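Downstream open reading frames (ORFs) are stretches that could be translated after the stop codon that ends a gene's annotated coding sequence. The 398 described here were taken from the 18847 ORFs that the authors' deposited table lists as translated in rat heart muscle cells, by the class the authors gave each row. Of these, 307 are dORFs, which lie in the 3' untranslated region (3' UTR) of 267 genes. The other 91 are Overlap_dORFs, 1 in each of 91 genes. By the listed positions they begin inside the annotated coding sequence and end past its stop codon. Both classes together fall in 349 genes, and they are kept apart throughout.

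The data are ribosome profiling (Ribo-seq) libraries, in which the short RNA fragments that ribosomes shield from nuclease are sequenced, so that each read marks 1 ribosome on 1 mRNA. The cells were neonatal ventricular cardiomyocytes of Sprague-Dawley rats taken at postnatal day 2 and pre-plated to remove other cell types. They were left untreated (control, 2 libraries) or were given PE at 20 µM for 24 h (2 libraries). The labels name no genetic change in either group. The labels do not say whether the 2 libraries of a group come from separate cultures, so every p-value measures the spread between these libraries, which may be technical.

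Ribosomes normally leave an mRNA at the stop codon: release factors free the finished protein, and the recycling factor ABCE1 splits the ribosome. A ribosome can still reach the 3' UTR when it reads through the stop codon, when part of it stays bound and starts again nearby, or when it slips into another frame. Ribosomes stranded past a stop codon are removed by rescue factors such as Pelota and HBS1L. Translation of a downstream ORF can also come from a transcript on which the annotated coding sequence is not the one in use.

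The 4 libraries held 11446574 to 13827599 counts on all ORFs. Downstream ORFs took 0.0719% and 0.0721% of them in the control libraries and 0.0711% and 0.0705% in the PE libraries. The summed footprints of 8 fibroblast marker genes were at 34436 and 34705 CPM (counts scaled to library size) in control and at 20832 and 21069 in PE. Of 8 cardiomyocyte markers, 2 were higher with PE and 6 lower. Their sum was at 60727 and 60826 in control and at 67058 and 67540 in PE, and without Nppa, left out after seeing the data, at 55754 and 56001 in control and at 49307 and 49670 in PE. In bulk libraries, fewer cells of a type and less RNA per cell cannot be told apart, and footprint counts alone do not separate the amount of an mRNA from its translation. Of 7 fibroblast markers tested 5 were lower and 1 higher, and Col1a2 was at or near 0 in all libraries. Summed endothelial markers stood at 211 to 218 CPM in control and 123 to 129 with PE, leukocyte markers at 374 CPM or more and at most 246, and smooth muscle markers at 2113 to 2147 and 1832 to 1845. Of the 6 smooth muscle markers 5 were lower with PE and 1 was higher: Cnn1, from a mean of 55.6 CPM in control to 253 CPM with PE. The part of these marker shifts in the results below was not tested.

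Most dORFs were short and began soon after the annotated stop codon. Their median length was 51 codons (quartiles 32 and 82), against 439 for annotated ORFs and 24 for upstream ORFs (uORFs), their counterparts in the 5' UTR. Only 45 dORFs had at least 100 codons, and the longest, in Alg13, had 967. The start codon lay a median of 118 nt past the annotated stop (quartiles 44.5 and 252 nt), at most 30 nt past it in 60 dORFs and over 1000 nt from it in 14. In 4 dORFs, those of Ctsa, Ghitm, Sumo3 and Szrd1, the start codon followed the stop codon directly, and in 10 of the 60, among them Cisd1, Tmsb4x and Ufm1, it shared the stop codon's last base. All 398 predicted peptides began with methionine. Relative to the annotated ORF, 99 dORFs lay in the same frame, 107 in frame +1 and 101 in frame +2.

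Overlap_dORFs were somewhat longer, with a median of 64 codons, and 28 of them had at least 100. Their overlap with the annotated coding sequence had a median of 44 nt. The most frequent single arrangement was an overlap of exactly 4 nt, seen in 17 of the 91, where the new start codon sits across the annotated stop codon. These 17 include Dhx9, an RNA helicase, Ube2j1, a ubiquitin-conjugating enzyme of the endoplasmic reticulum, and Chtf8, Slc25a26, Bcl9, Itgb1 and Nedd8. The other extreme was 21 overlaps of over 100 nt. By the listed positions only 4 Overlap_dORFs lay in the annotated frame, against 54 in frame +1 and 33 in frame +2. An ORF that starts inside a coding sequence in its frame would end at the same stop codon. For these 4 the listed end or frame of the annotated sequence may therefore be incomplete, which was not checked. One of the 4, in Smpd4, a neutral sphingomyelinase, began 6 nt after the annotated start and ended 3 nt after the listed annotated end. By these positions its 823 codons cover nearly the whole annotated coding sequence in the same frame. The table lists no annotated ORF for Smpd4, so its peptide could not be compared with one (below), and its footprints cannot be told apart from those of the coding sequence.

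**Figure D1:**
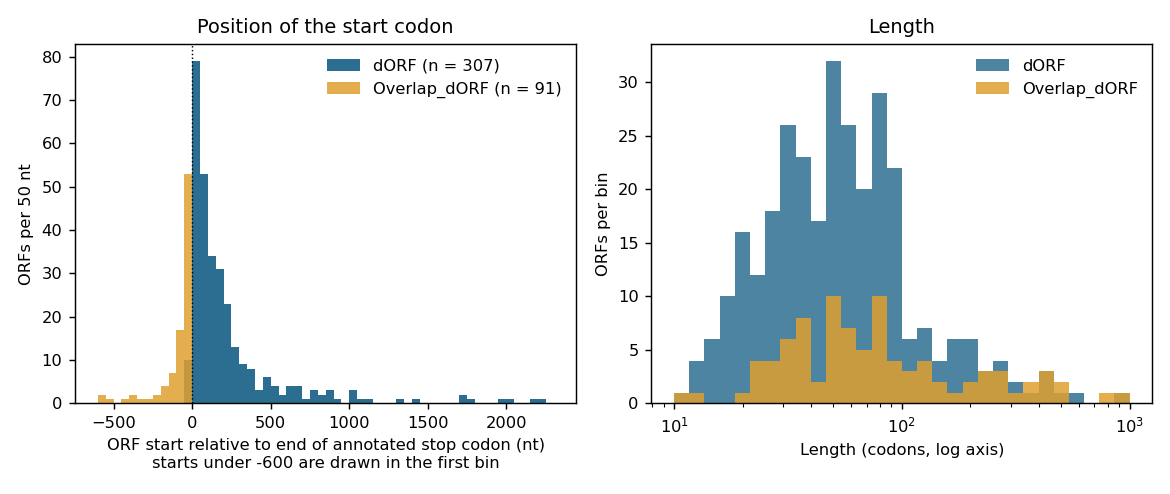
Left, number of downstream ORFs by the distance in nucleotides from the end of the annotated stop codon to their start codon, in bins of 50 nt, with negative values for starts inside the annotated ORF. Right, number of ORFs by length in codons on a log axis. The dORFs (blue) crowd close behind the stop codon, around a median of 118 nt, and the Overlap_dORFs (orange) start at a median of 44 nt before the stop codon's end.

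The footprints on downstream ORFs followed a triplet rhythm. Each footprint was assigned by the authors to the codon in the ribosome's P-site, and the share of P-sites that fall on the first base of a codon (frame 0) shows how strictly they follow one reading frame. Pooled over members, this share was 80.6% on dORFs and 76.1% on Overlap_dORFs, against 78.3% on uORFs and 84.8% on annotated ORFs. Without the members whose peptide matches an annotated protein (below), it was 78.5% on dORFs and 64.8% on Overlap_dORFs. On the uORFs that overlap the coding sequence it was 64.7%. The median per ORF was 79.3% for dORFs and 73.7% for Overlap_dORFs, and single dORFs ranged from 25.5% to 100%. How the caller used the frame to list an ORF is not given in the sources used here, so these shares describe the listed ORFs and carry no test.

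Ribosome density on dORFs was low beside that of the coding sequence upstream. Measured as frame 0 P-sites per codon, the median dORF stood at 4.84% of the annotated ORF of its gene, over the 302 dORFs that have one in the table. In 184 dORFs the density was under 10%, and in 35 it was above that of the annotated ORF. The median for Overlap_dORFs was 50.9% and for uORFs 81.4%. Where an Overlap_dORF shares bases with the annotated ORF, footprints of both fall on the same stretch, so that its density is not its own alone.

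By distance from the stop codon, and leaving out the dORFs whose peptide matches an annotated protein (below), the median density was 4.94% of the annotated ORF for the 47 that begin 0 to 30 nt past the stop (quartiles 1.14% and 21.2%). It was 2.89% for the 75 at 31 to 100 nt, 4.82% for the 93 at 101 to 300 nt, 3.01% for the 44 at 301 to 1000 nt and 1.96% for the 12 farther out. The quartile ranges of all 5 groups overlap. The annotated ORFs of dORF hosts had a median of 26.0 CPM and 200 codons, against 13.5 CPM and 445 codons over all 13762 genes with an annotated ORF. For hosts of Overlap_dORFs the medians were 10.7 CPM and 377 codons.

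Some members have predicted peptides that match an annotated protein of the table. In 27 dORFs and 19 Overlap_dORFs, at least 50% of all 8-residue words of the predicted peptide occur in an annotated ORF of the table. For 30 of the 46 the match was an annotated ORF of the same gene. For 18 it was one under another gene identifier, with 2 that matched both ways. The dORF of Ak6 matched Taf9, a subunit of the transcription factor TFIID, over 100% of its words, that of Snurf matched the splicing protein Snrpn over 100%, and that of Gon7 matched Moap1 over 100%. The dORF of Sept5 matched Gp1bb, a platelet glycoprotein, over 94.2%, and the Overlap_dORF of the cell-cycle inhibitor gene Cdkn2a matched another ORF of that gene over 92.8%. The match can also be to a related gene: the Overlap_dORF of Ypel2 shares 52.7% of its words with Ypel3. A shared word does not show which ORF the ribosomes were reading. These examples were chosen after their values were seen.

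These 46 had higher median densities than the remaining members. The median over the 27 dORFs was 91.0% of the annotated ORF, against 3.19% for the other dORFs, and their median length was 115 against 50 codons. For Overlap_dORFs the densities were 78.8% and 40.9%. Of the 35 dORFs denser than their annotated ORF, 10 are among the 27. The count table, by contrast, gave 39 of the 46 a count of 0 in all 4 libraries, although P-sites are listed on each of them. Only 2 of the 46, in Snrpb and Ypel2, had enough counts to be tested. At the other end, 228 dORFs and 49 Overlap_dORFs share no 8-residue word with any annotated ORF.

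Among the amino acids of the predicted peptides, cysteine made up 3.57% of dORF residues against 2.18% of annotated ones, tryptophan 1.91% against 1.17%, and proline 7.66% against 6.18%. Of the charged residues, glutamate stood at 4.89% against 7.26%, lysine at 4.50% against 5.86%, and aspartate at 3.57% against 4.99%. Arginine went the other way, at 6.33% against 5.73%, as did histidine, at 3.05% against 2.62%. Except for histidine (2.44%), uORFs lay on the same side of annotated ORFs for each of these residues, with tryptophan at 1.93% and lysine at 3.99%. The dORFs whose peptide matches an annotated protein are included. No test was made, as residues of 1 peptide are not independent.

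**Figure D2:**
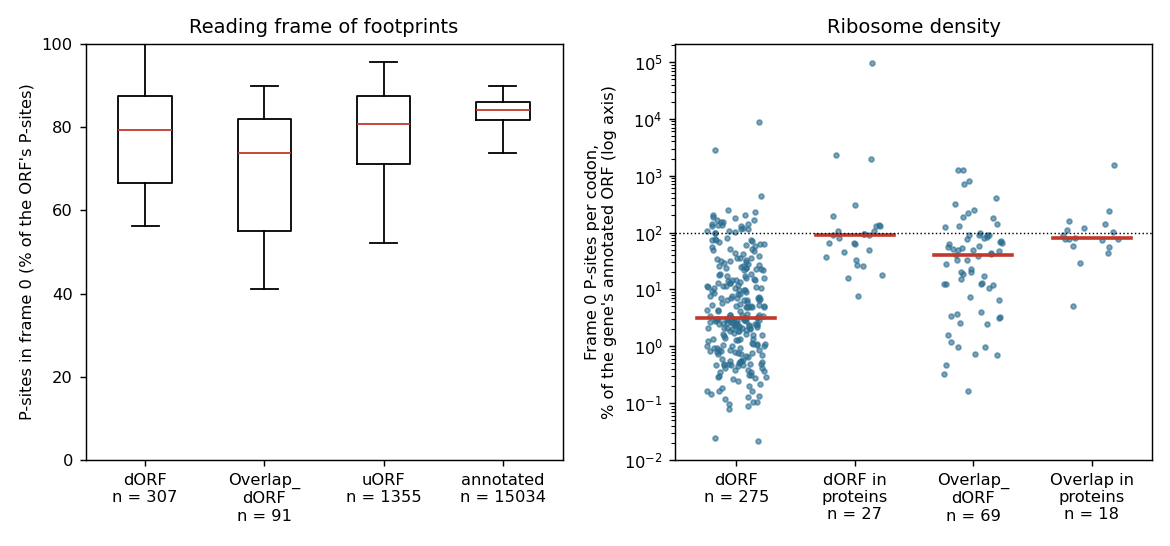
Left, percent of each ORF's P-sites in frame 0, by ORF class (box, quartiles; red line, median; whiskers, 5th to 95th percentile). Right, frame 0 P-sites per codon as a percent of the annotated ORF of the same gene, on a log axis, one point per ORF with the median in red, with members whose peptide words occur in annotated proteins shown apart. The dORF median is 3.19% without those members and 91.0% among them, where the dotted line marks equal density.

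PE changed the footprints on a minority of the downstream ORFs deep enough to test. After a filter on low counts, 84 of 307 dORFs and 29 of 91 Overlap_dORFs were tested, in a fit over all 12609 ORFs that passed. At a Benjamini-Hochberg adjusted p under 0.05 in edgeR's quasi-likelihood test, 12 dORFs were higher and 6 lower with PE, which is 21.4% of those tested. Among Overlap_dORFs 3 were higher and 5 lower, or 27.6%. Over all ORFs tested, 42.7% were called, 21.4% as higher and 21.3% as lower. Most downstream ORFs hold few counts, and among ORFs with a mean of under 100 counts the share called was 23.2% over all ORFs, 16.2% for dORFs (12 of 74) and 28.6% for Overlap_dORFs (6 of 21). At a mean of at least 100 counts it was 52.9% over all ORFs, 6 of 10 for dORFs and 2 of 8 for Overlap_dORFs.

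The median log2 fold change was 0.09 over the 84 dORFs and -0.01 over the 29 Overlap_dORFs, against 0.00 over all ORFs. The median standard error was 0.41 for dORFs and 0.28 for Overlap_dORFs, against 0.12 over all ORFs. The control and PE libraries did not overlap in 44 dORFs (52.4%) and 18 Overlap_dORFs (62.1%), against 68.6% of all ORFs tested. The remaining 223 dORFs and 62 Overlap_dORFs were too shallow to test, and 46 and 26 of these had no count in any library. Leaving out the second control library left 7 dORFs called higher. Without the first PE library 1 Overlap_dORF was higher and 2 were lower, and without either control library 2 were lower, as were 3 without the second PE library. DESeq2 in place of edgeR called 6 dORFs higher and 2 lower. Removing the dependence of fold change on ORF length gave 9 dORFs higher and 10 lower.

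The largest rise was on the dORF of Nppa, the gene of atrial natriuretic peptide and a classical marker of cardiomyocyte hypertrophy. This ORF of 20 codons lies 136 nt past the stop codon, in frame +1 (Rnor_6.0, chromosome 5, 164809574 to 164809636, plus strand). It had 1.64 and 1.36 CPM in control and 13.2 and 10.8 CPM with PE, from 19, 19, 158 and 133 counts. Both PE libraries lay far above both control libraries, with a log2 fold change of 3.01 ± 0.23 (SE, edgeR adjusted p = 1.54e-12). The annotated ORF of Nppa rose by 1.86 ± 0.01. The dORF's density was 0.291% of the annotated ORF's.

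The dORF of Actc1, the cardiac alpha-actin gene, starts 21 nt past the stop codon and spans 39 codons (chromosome 3, 105507425 to 105507544, minus strand). It had 14.9 and 16.8 CPM in control and 41.5 and 41.9 CPM with PE. The groups did not overlap, and the log2 fold change was 1.39 ± 0.10 (SE, edgeR adjusted p = 1.17e-13). Only 48.7% of its P-sites were in frame 0: 558 fell in frame 0, 421 in frame 1 and 167 in frame 2. The annotated ORF of Actc1 rose by 0.51 ± 0.01. The actin genes are near-identical in their coding parts, so counts on the annotated ORF may be split between them.

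Several other dORFs rose. The dORF of Tsc22d1, a transcription regulator, begins 6 nt past the stop codon and went from 2.50 and 2.07 CPM to 5.35 and 4.79 CPM (log2 fold change 1.16 ± 0.27). That of S100a4, a calcium-binding protein, begins 11 nt past the stop and went from 0.948 and 0.642 to 2.34 and 3.17 CPM (1.80 ± 0.41). That of Rcan1, an inhibitor of calcineurin, went from 0.775 and 1.07 to 1.84 and 2.19 CPM (1.10 ± 0.42). In each of the 3 both PE libraries exceeded both control libraries. The dORF of Pkia, an inhibitor of protein kinase A, rose by 0.70 ± 0.20, that of the splicing regulator Mbnl2 by 0.66 ± 0.15, and that of the mRNA export factor Alyref by 0.20 ± 0.08. The call for Rcan1 was lost when any 1 library was left out, as was that for Alyref. Pkia lost its call without the first PE library (adjusted p = 0.17).

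The remaining 4 dORFs that rose held few counts and are named here after their values were seen. Those of the calcium sensor Syt3 at 249 nt (2, 3, 21 and 17 counts, log2 fold change 2.94 ± 0.62) and at 86 nt (11, 8, 30 and 20 counts, 1.46 ± 0.45) lie in a gene whose annotated ORF held 8, 7, 7 and 12 counts, so that both dORFs together held more counts than the coding sequence in all 4 libraries. The dORF of Cav3, the muscle caveolin, had 2, 4, 10 and 15 counts (2.09 ± 0.66). The dORF of Txndc12, a thioredoxin-like protein of the endoplasmic reticulum, had 7, 4, 11 and 17 counts (1.40 ± 0.57). All 4 had PE libraries above control libraries. Of these, the Syt3 dORF at 249 nt kept its call whichever library was left out. The others lost it without at least 1 library, the Txndc12 dORF without any 1 of the 4, with adjusted p up to 0.39.

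Among the dORFs that fell, that of Ctsa, the lysosomal carboxypeptidase cathepsin A, held the most counts of any dORF. By listed P-sites the dORF of AC114343.1 held more, with 5492 P-sites but a count of 0 in all 4 libraries. The Ctsa dORF spans 40 codons, 255 nt past the stop codon (chromosome 3, 161304153 to 161304275, plus strand), and its density was 75.2% of the annotated ORF's. It had 64.3 and 62.3 CPM in control and 39.1 and 37.2 CPM with PE, with no overlap and a log2 fold change of -0.73 ± 0.07 (SE, edgeR adjusted p = 1.93e-10). A second dORF of Ctsa, of 38 codons and directly after the stop codon, had 19.3 and 22.6 CPM in control and 21.7 and 22.0 CPM with PE. Its groups overlapped, and its log2 fold change of 0.05 ± 0.11 was not called (adjusted p = 0.74). The annotated ORF changed by -0.39 ± 0.02. The difference between both dORFs was not tested.

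The dORF of Myl6, a myosin light chain of non-muscle and smooth muscle cells, fell from 3.62 and 3.14 CPM to 1.34 and 1.79 CPM (log2 fold change -1.10 ± 0.33, adjusted p = 0.0072). It lost its call without the first control or the first PE library (adjusted p = 0.055 and 0.064). The dORF of Snrpb, a core protein of spliceosomal snRNPs, changed by -0.66 ± 0.21, but 80.8% of its peptide words occur in the annotated Snrpb protein, and the count table holds only 0.135 counts per listed P-site for it. Its call was lost without the second control or second PE library (adjusted p = 0.17 and 0.10). That of Idh3B, a subunit of mitochondrial isocitrate dehydrogenase, changed by -0.36 ± 0.14, and by -0.17 without the second control library (adjusted p = 0.48). Leaving out either PE library also ended that call (0.059 and 0.094). The dORF of Adamtsl3, a matrix protein, had 15, 19, 0 and 9 counts. Its log2 fold change of -1.81 ± 0.65 became -0.85 without the first PE library (adjusted p = 0.35), and the call was also lost without either control library. It was named after its values were seen, since its mean is under 20 counts.

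Phospholamban, the inhibitor of the sarcoplasmic reticulum calcium pump that the Pln gene encodes, is followed by 5 dORFs. The first starts 28 nt past the stop codon and had 24.9 CPM in both control libraries and 17.5 and 19.5 CPM with PE, a log2 fold change of -0.43 ± 0.11 (edgeR adjusted p = 0.0015). The annotated Pln ORF changed by -0.47 ± 0.02. The other 4, at 257, 351, 489 and 845 nt, held far fewer: the one at 257 nt had 6, 20, 16 and 8 counts, that at 351 nt 15, 24, 18 and 15, that at 489 nt 5, 10, 3 and 8, and that at 845 nt 3, 4, 4 and 15. Groups overlapped in the first 3 of these. At 845 nt both PE libraries lay above both control libraries in CPM, at counts too low to test. The 2 that were tested were not called. Tsc22d1 had 6 dORFs, the most of any gene, of which the one 6 nt past the stop was called and the one at 230 nt was not (log2 fold change 0.87 ± 0.49, adjusted p = 0.15). The others of Tsc22d1, 1 of which overlaps that at 230 nt, were too shallow to test.

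**Figure D3:**
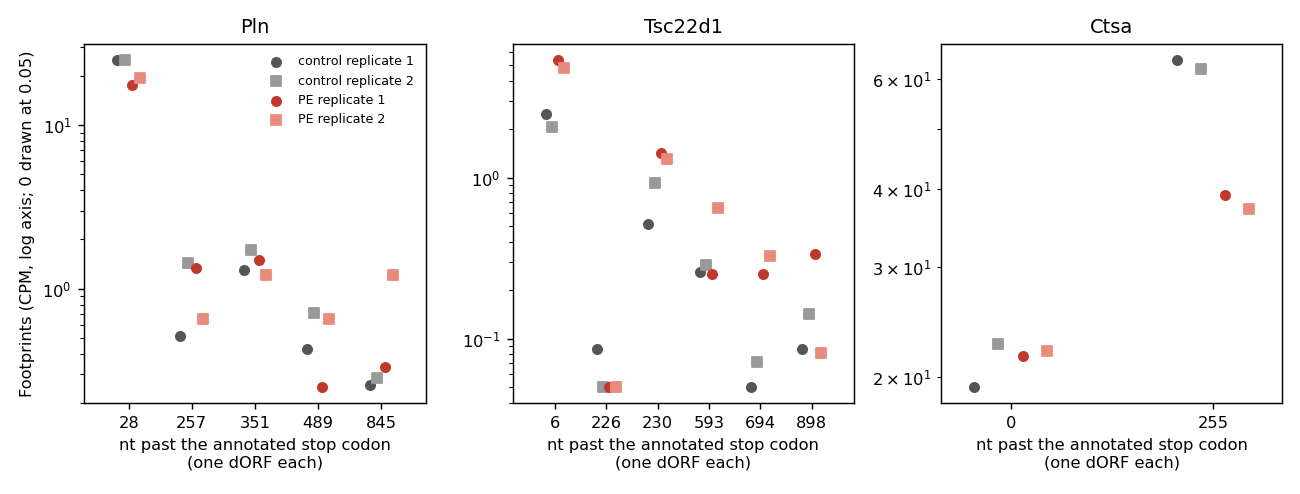
Footprints in CPM (log axis, a count of 0 drawn at 0.05) on each dORF of Pln, Tsc22d1 and Ctsa, ordered by distance in nt past the annotated stop codon, one point per library (grey, control; red, PE). In Pln and Tsc22d1 the first dORF holds the most footprints, and in Ctsa the one at 255 nt does.

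Among Overlap_dORFs, that of Xirp2, an actin-binding protein of intercalated discs, spans 525 codons and rose from 4.57 and 4.07 CPM to 8.36 and 6.83 CPM (log2 fold change 0.82 ± 0.21, edgeR adjusted p = 0.0017). That of Mmp16, a membrane-bound metalloproteinase, rose by 1.12 ± 0.34, beside 1.25 ± 0.11 on its annotated ORF. That of Pkp1, a desmosomal plakophilin, had 4, 7, 24 and 17 counts (1.96 ± 0.52), beside 2.19 ± 0.24 on its annotated ORF. In these 3 both PE libraries were above both control libraries. Mmp16 lost its call without the first control or first PE library, and Pkp1 without the first PE library (adjusted p = 0.073).

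Lower Overlap_dORFs included the one in Smpd4, with 46.3 and 43.2 CPM in control and 35.7 and 36.7 CPM with PE (log2 fold change -0.30 ± 0.08, edgeR adjusted p = 0.0019). The one across the stop codon of Dhx9 had 12.6 and 10.1 CPM in control and 7.44 and 7.88 CPM with PE (-0.56 ± 0.16). Its groups did not overlap, though the call was lost without the first control library (adjusted p = 0.094). Those of Ccpg1, an autophagy receptor of the endoplasmic reticulum, and of Tcta changed by -0.78 ± 0.29 and -0.68 ± 0.27. That of Ptprr, a tyrosine phosphatase, had 12, 18, 5 and 5 counts (-1.48 ± 0.56). The calls for Ptprr and Tcta were lost when any 1 library was left out, and that for Ccpg1 without the second control or first PE library. Pkp1, Ptprr and Dhx9 were named after their values were seen.

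Of the 26 calls in both classes, 10 held under every alternative setting that gave them a value, including each library left out in turn and DESeq2. Leaving out a library leaves 1 in its group, which is then assumed to vary like the other group, so these refits test only whether a call depends on 1 library and give no estimate of the spread in that group. These were the dORFs of Nppa, Actc1, S100a4, Tsc22d1, Mbnl2 and Pln, the Syt3 dORF at 249 nt, the Ctsa dORF at 255 nt, and the Overlap_dORFs of Smpd4, which covers the coding sequence, and Xirp2. In the authors' deposited table, DESeq2 adjusted p-values fell under 0.05 for 25.8% of the ORFs that have one. Of the 154 downstream ORFs with such a value, 10 passed that threshold, and they are these same 10. DESeq2 on the same libraries was among the settings that chose the 10, so this match is no separate support. The authors' deposited table gives the Nppa dORF a log2 fold change of 3.01 and the Actc1 dORF 1.40.

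**Figure D4:**
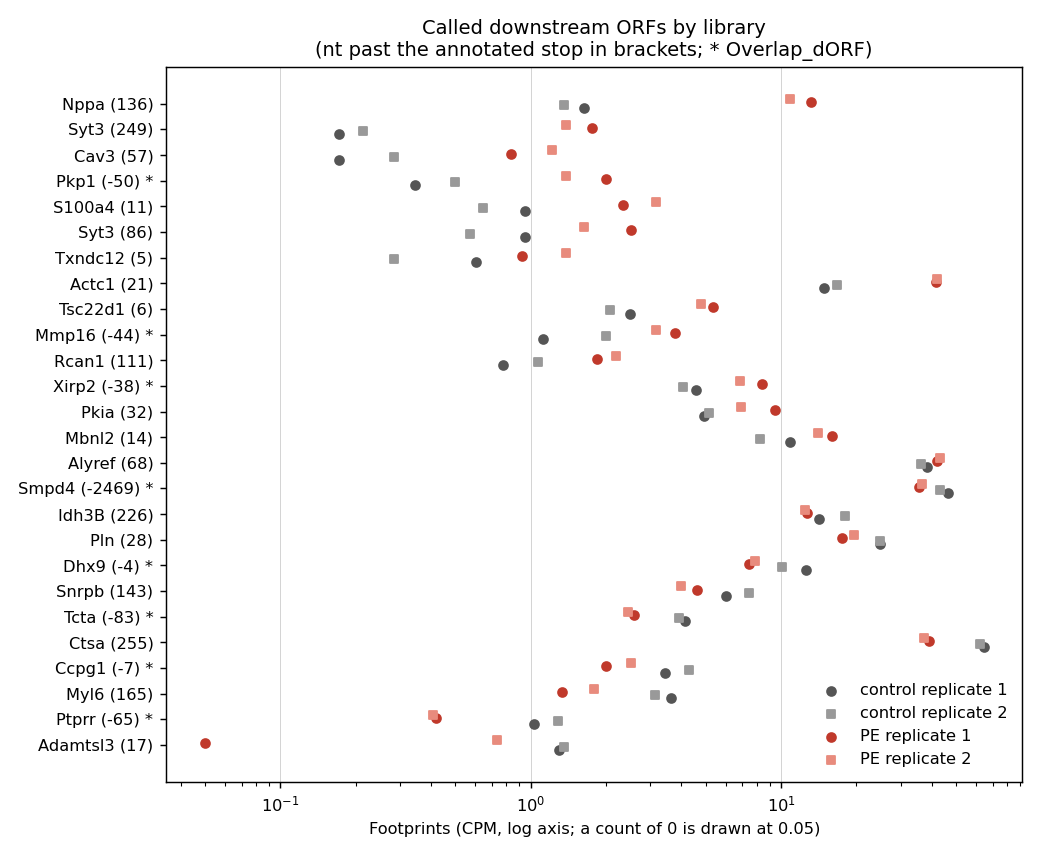
Footprints in CPM on a log axis for the 26 called downstream ORFs, one point per library (grey, control; red, PE), ordered by log2 fold change, with the distance past the annotated stop in nt in brackets and Overlap_dORFs starred. Both libraries of a group lie on the same side of the other group in each of the 26, from Nppa at the top to Adamtsl3, whose first PE library had no count, at the bottom.

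Several of the downstream ORFs with the highest CPM did not pass the test. The dORF of Xirp1, a relative of Xirp2, spans 433 codons, 395 nt past the stop, with 85.5% of P-sites in frame 0 and a density of 47.8% of the annotated ORF. It had 46.2 and 48.6 CPM in control and 48.5 and 51.8 CPM with PE (log2 fold change 0.08 ± 0.07, edgeR adjusted p = 0.40). The dORF of AABR07021840.1, of 288 codons, had 21.6, 27.5, 24.0 and 22.4 CPM, while the annotated ORF of that gene had no count. The Overlap_dORF of Chtf8, of 533 codons, had 34.6, 34.0, 31.6 and 34.7 CPM, and held 73.1% to 76.3% of the footprints on itself and the annotated ORF together. The Overlap_dORF of Ypel2, whose peptide shares 52.7% of its words with Ypel3, had 27.5, 27.2, 24.7 and 22.2 CPM. It missed the threshold (log2 fold change -0.22 ± 0.10, edgeR adjusted p = 0.075). It passed with library totals in place of TMM factors (adjusted p = 0.032) or with the length trend removed (0.011).

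Whether a downstream ORF moved apart from the coding sequence of its gene was tested within pairs, with both ORFs counted in the same libraries. Because the ORFs of a pair share libraries and mRNA, the changes are given side by side. Of 902 pairs of any class that could be fitted, 2% were called at an adjusted p under 0.05 in edgeR's interaction test, 1.66% with the unannotated ORF higher and 0.333% with it lower. Among 67 dORF pairs, 2 were called with the dORF higher and 2 with it lower. Among 23 Overlap_dORF pairs none was called. An unadjusted p under 0.05 in the same test was found in 3 of the 23 and in 12 of the 67 dORF pairs, beside 13.4% of all 902 pairs. DESeq2 was not run on the pairs. The median difference was 0.04 for dORFs (quartiles -0.41 and 0.42) and -0.17 for Overlap_dORFs, with a median SE of 0.39 and 0.35.

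The dORF of Actc1 rose beyond its coding sequence. It held 0.0615% and 0.0693% of the footprints on both ORFs in control and 0.121% in both PE libraries, a difference of 0.89 ± 0.12 on the log2 scale (edgeR adjusted p = 0.00016). The dORF of Nppa held 0.0329% and 0.0281% in control and 0.0743% and 0.0604% with PE (difference 1.14 ± 0.25, adjusted p = 0.021). In both genes the PE libraries were the higher ones without overlap.

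The dORFs of Myl6 and Ctgf fell relative to their coding sequences. In Myl6 the dORF held 14.7% and 11.6% of the counts on both ORFs in control and 3.35% and 4.80% with PE. The annotated ORF rose by 0.72 ± 0.10 (difference -1.82 ± 0.35, edgeR adjusted p = 0.0067). The count table held only 0.0230 counts per listed P-site for the annotated Myl6 ORF and 0.440 for the dORF. The Myl6 shares are therefore not shares of all footprints, and the rise on the annotated ORF rests on a small part of its own. Ctgf encodes connective tissue growth factor, a secreted matricellular protein. Its dORF, 18 codons long and 584 nt past the stop, had 34, 37, 28 and 18 counts, and its own log2 fold change of -0.55 ± 0.34 was not called, while the annotated ORF rose by 0.64 ± 0.02 (difference -1.19 ± 0.31, adjusted p = 0.044).

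These 4 pair calls did not survive the loss of a library. Without the first PE library the adjusted p was 0.14 for Actc1, 0.15 for Myl6, 0.27 for Nppa and 0.14 for Ctgf. Without the second it was 0.11, 0.13, 0.13 and 0.38. Leaving out either control library also ended the calls for Nppa (0.28 and 0.56) and Ctgf (0.23 and 0.19), but not those for Actc1 and Myl6. Among pairs with at least 0.5 counts per listed P-site on both ORFs, Ctgf also missed the threshold (0.063) and Myl6 did not enter. Where the call was lost, the differences ranged from 0.99 to 1.29 in Nppa, -2.11 to -1.57 in Myl6 and -1.56 to -0.88 in Ctgf, and stayed at 0.89 in Actc1.

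**Figure D5:**
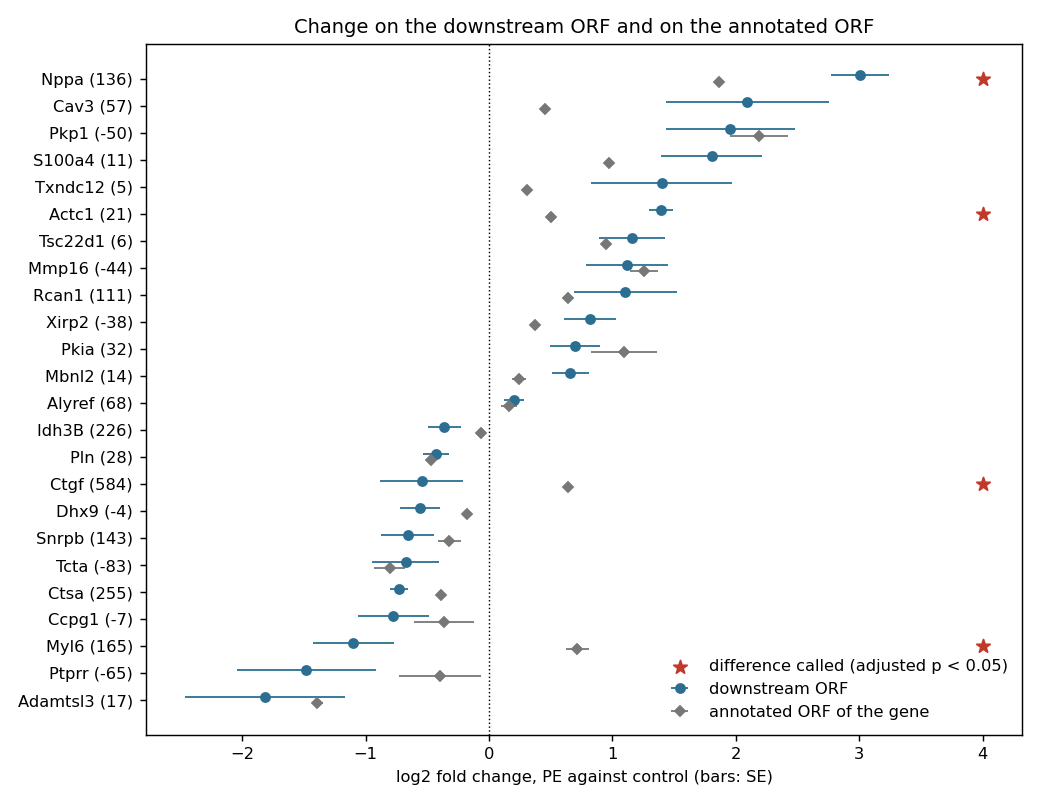
Log2 fold change (PE against control, with SE bars) of each called downstream ORF (blue circles) and of the annotated ORF of its gene (grey diamonds), for genes where both were tested, with Ctgf added. Brackets give the distance past the annotated stop in nt, and red stars mark the 4 pairs whose difference had an adjusted p under 0.05. The 2 symbols lie on the same side of 0 in all genes shown but Myl6 and Ctgf.

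Summed over all genes with both kinds of ORF, dORFs held 0.520% and 0.534% of the footprints on dORF and annotated ORF together in control, and 0.447% and 0.440% with PE. The means were 0.527 ± 0.0096% and 0.444 ± 0.0049% (SD, n = 2 each). The exact two-sided permutation test gave p = 0.333, the smallest that 2 against 2 libraries allow. The difference rested on 2 genes whose coding sequences hold very many footprints: without Nppa and Actc1, an alternative chosen after seeing the data, the means were 0.755 ± 0.011% and 0.751 ± 0.0060%. For Overlap_dORFs the shares were 1.30% and 1.27% in control and 1.06% and 1.08% with PE (exact p = 0.333). Summed over all members, dORFs had 487 ± 8.48 CPM in control and 507 ± 2.94 CPM with PE, and Overlap_dORFs 224 ± 7.22 and 212 ± 1.25 CPM (exact p = 0.333 for each, n = 2 per group).

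Host genes of the heart muscle programme were examined from a list of 42 hypertrophy, sarcomere and calcium genes. Of these, 10 carried 15 downstream ORFs, of which 10 were tested, 4 rose (Nppa, Actc1, Rcan1 and Xirp2) and 1 fell (the first of Pln). These 5 of 10 stand beside 42.7% called over all ORFs tested. The Overlap_dORF of Acta1, the skeletal alpha-actin gene, had 9, 10, 12 and 24 counts (log2 fold change 0.99 ± 0.49, edgeR adjusted p = 0.10). The dORF of Gja1, which encodes the gap junction protein connexin 43, had 12, 32, 7 and 23 counts (-0.46 ± 0.47, adjusted p = 0.47), and its groups overlapped. Those of Myl3 and Ldb3 were too shallow to test. None of the 37 genes on a list of selenoproteins and known readthrough genes carried a downstream ORF in the table.

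The annotated ORFs of the genes that end translation and clear stranded ribosomes were read from the same fit. Of 29 tested genes on 3 lists, 8 were higher and 7 lower, beside 42.7% of all ORFs called and 52.9% of those with a mean of at least 100 counts, so that the count is near the background. In termination and recycling, 4 of 6 rose and none fell, where 21.4% of all ORFs rose and 21.3% fell. Etf1, release factor eRF1, went from 67.3 and 69.0 to 90.2 and 87.5 CPM (log2 fold change 0.38 ± 0.06), and Abce1 rose by 0.20 ± 0.03, Eif5a by 0.33 ± 0.03 and the recycling factor Eif2d by 0.35 ± 0.10. With DESeq2, 5 rather than 8 genes of the 3 lists were called higher. Etf1 held 0.435 counts per listed P-site, and Smg6, below, 0.380.

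In ribosome rescue, 4 of 10 rose and 3 fell, against the same 21.4% and 21.3%. Ascc2, a subunit of the complex that splits collided ribosomes, rose by 0.61 ± 0.07, Edf1, a sensor of collisions, by 0.36 ± 0.05, Pelo by 0.13 ± 0.05 and Hbs1l by 0.13 ± 0.05 (edgeR adjusted p = 0.038 and 0.050 for these last). Ascc3, the helicase of the same complex as Ascc2, changed by -0.18 ± 0.05, the ubiquitin ligase Ltn1 by -0.17 ± 0.05 and Gtpbp1 by -0.21 ± 0.07. In nonsense-mediated decay, which destroys mRNAs that stop too early, none of 13 rose and 4 fell, with log2 fold changes of -0.30 ± 0.04 for Upf1, -0.42 ± 0.07 for Upf2, -0.55 ± 0.13 for Smg6 and -0.40 ± 0.10 for Smg8. That is beside 21.3% lower and 42.7% called in all over all ORFs. Of the 398 downstream ORFs, 18 lie on transcripts that the annotation marks as targets of this decay.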

How the data were processed

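The 2 control and 2 PE Ribo-seq libraries were made with 1 protocol per the labels. Reads were handled with cutadapt 2.0, Bowtie 1.1.2 and STAR 2.4.2a on Rnor_6.0, per the submitters' processing notes. Which programs called and counted the ORFs is not given in the sources used here. Deposited were raw counts per ORF and library, and an ORF table with pooled P-site counts, coverage in percent of codons, p-values of the frame test, and log2 fold changes and adjusted p-values of a DESeq2 comparison. The count table and the P-sites are not on 1 scale: 80 of 307 dORFs and 54 of 91 Overlap_dORFs hold under 0.5 counts per P-site, as do 26.2% of annotated ORFs, and the cause was not tested. A count of 0 therefore does not show that no ribosome was there, and fold changes of ORFs under that level rest on part of their footprints.

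From the counts, edgeR 4.0.16 (R 4.3.3) fitted a robust quasi-likelihood model over all ORFs that passed filterByExpr (12609), with TMM factors of 0.982 to 1.02, no covariate, and Benjamini-Hochberg adjustment over all of them. CPM values use these factors. Each downstream ORF was paired with the annotated ORF of its gene identifier that had the most summed counts. The difference in PE change within a pair was tested in a second model over 902 pairs with a mean of at least 10 counts on each ORF, with a term for each library. Densities compare frame 0 P-sites per codon with the annotated ORF that has the most P-sites. Peptides were compared in words of 8 residues with the annotated ORFs' peptides. The common variation beyond counting noise was 2.18% in the ORF model and 8.52% in the pair model. It may be technical, as the labels do not say whether the libraries come from separate cultures. Both models were tested on simulated counts: of ORFs changed 2-fold 95.9% were called and of those changed 1.25-fold 61.2%, over 12415 ORFs. The changed ORFs were drawn from all classes. The tested ORFs of all classes had a median of 214 counts per library and the tested dORFs 20, so these 2 shares do not describe dORFs. Of 55 pairs moved 2-fold 35 were called, over 873 pairs.

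Depth was 11446574 to 13827599 counts per library, and the dORFs that were tested had a median of 20 counts per library, so that only large changes could be called on most of them. Named ORFs were the 6 dORFs and 3 Overlap_dORFs with the highest mean CPM, the called ORFs of at least 20 mean counts with the 6 highest and 6 lowest dORF changes and the 2 highest and 2 lowest Overlap_dORF changes, all ORFs called in the pair test, and the host lists, and any other is said to be chosen after its values were seen. The members and the gene lists were chosen with earlier results of these data known. DESeq2 1.42.0, other normalizations and filters, a replicate term, a length correction and each library left out were tried as alternatives. RNA-seq was not analysed here, and no sequences are printed because no genome of this build was used.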

Additional observations from a re-analysis of the deposited data

How the results depend on the processing

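Against 12 dORFs called higher and 6 lower, DESeq2 called 6 and 2, a mean of at least 20 counts left 7 higher, and removing the length trend gave 10 lower. With 1 library left out, 7 to 10 dORFs were higher and 5 to 6 lower. Among Overlap_dORFs, with 3 higher and 5 lower, leaving out 1 library gave 1 to 4 and 2 to 3, and DESeq2 called 1 lower. Pair calls for dORFs, 2 in each direction, became 0 to 1 higher and 0 to 1 lower with 1 library left out, where a pair keeps few degrees of freedom and the lone library of a group is assumed to vary like the other group. No dORF pair was lower with at least 0.5 counts per P-site on both ORFs, a setting that leaves fewer pairs. DESeq2 called 5 termination, rescue and decay genes higher, against 8. The dORF share of footprints moved by -0.083 percentage points with PE, and by -0.0040 without Nppa and Actc1, a setting chosen after seeing the data. The Overlap_dORF share moved by -0.215 points, and by -0.302 with at least 0.5 counts per P-site. No called value changed sign. Of the named ORFs that were not called, AABR07021840.1 went from -0.09 to 0.10 without the second control library and the Chtf8 Overlap_dORF from -0.05 to 0.01 without the first PE library. With the length trend removed, the dORF balance turned from 12 higher and 6 lower to 9 and 10.

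The labels do not say what the replicate numbers in the titles mark. Same-numbered libraries had a correlation of deviations of 0.013, and with 2 pairs the numbers were not taken to pair the samples. With the replicate number as a block, 11 dORFs were higher and 7 lower, 3 and 5 Overlap_dORFs, and 3 dORF pairs were higher and 2 lower. Of the 26 calls, RLE size factors kept 26, the block 25, library totals and no filter on low counts 24 each, the length correction 23 and DESeq2 11.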
